A study of Homo sapiens with 4 samples.

Results

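The antioxidant and detoxification genes under the control of NRF2 were followed in cells labelled A549, a human lung adenocarcinoma line, after transfection of either strand of *miR-486*. The set was given as 44 genes: the regulators of the pathway and target genes for glutathione, thioredoxin, NADPH, carbonyl and drug metabolism, conjugation, heme and iron. A probe was assigned to a gene through the RefSeq accession listed for it on the array, and 42 of the 44 genes had 1 or more such probes, 59 probes in all, among 22439 genes matched on the arrays. No probe was matched for *AKR1C2* and *TRIM16L*. RNA was measured on 4 one-color Agilent arrays: 1 after *miR-486-5p* (the 5p array), 1 after *miR-486-3p* (the 3p array) and 2 of mock cells, which received the transfection reagent (Lipofectamine RNAiMAX, in RPMI medium) and no miRNA. With 1 array per strand, the differences between a strand and mock have no replicate check. No array held a control miRNA, so in changes shared by both strands the sequence and transfection of any small RNA cannot be told apart. Nothing in the sources used here says whether the mock arrays came from separate cultures. These are arrays of whole cultures, so fewer cells carrying an RNA and less of it per cell cannot be told apart.

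NRF2, encoded by *NFE2L2*, is a transcription factor that is normally held at a low level by KEAP1, which presents it to a CUL3-RBX1 ubiquitin ligase for degradation. Electrophiles and oxidants modify KEAP1, NRF2 then accumulates, pairs with a small MAF protein and binds antioxidant response elements near its target genes. The repressor BACH1 competes for the same elements, most clearly at *HMOX1*. A549 is known to carry a mutant KEAP1 that does not restrain NRF2, and is known for high levels of many NRF2 targets without any inducer. Expression arrays do not show the genotype of *KEAP1*, so the levels in mock cells are given beside each difference.

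The core of the antioxidant response element, TGACNNNGC, was searched on both strands in windows of 300 bases, from 250 before to 50 after each RefSeq gene start (GRCh38.p14). Of the NRF2 genes, 34 had an entry in this promoter table and 14 of these held the core, 41.2%, against 4384 of 27305 genes in the table, 16.1%. Of 8 of these genes, the regulator *KEAP1* and enzymes of the groups described here, 1 site each is shown as an example, with the core in capitals, 5′ to 3′ on the strand of the gene. A core on the opposite strand reads GCNNNGTCA.
*KEAP1*, chr19:10502784-10502812, minus strand: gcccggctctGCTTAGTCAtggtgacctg
*GCLM*, chr1:93909446-93909474, minus strand: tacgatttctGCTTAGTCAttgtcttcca
*TXNRD1*, chr12:104215670-104215698, plus strand: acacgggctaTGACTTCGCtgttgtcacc
*PGD*, chr1:10398853-10398881, plus strand: cctcgccgggGCAATGTCAtctaggtgct
*CBR1*, chr21:36069855-36069883, plus strand: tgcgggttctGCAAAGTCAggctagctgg
*EPHX1*, chr1:225825266-225825294, plus strand: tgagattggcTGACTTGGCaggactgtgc
*MGST1*, chr12:16347135-16347163, plus strand: ggggacatcgTGACAAAGCaaattgtctg
*GSTP1*, chr11:67583736-67583764, plus strand: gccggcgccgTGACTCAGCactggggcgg
*KEAP1* and *TXNRD1* held further cores that are not shown. The other genes with a core were *CYP4F11*, *GPX2*, *IDH1*, *ME1*, *PIR* and *UGT1A6*. No entry was held for *AKR1B10*, *CBR3*, *CES1*, *FTH1*, *GSR*, *HMOX1*, *PRDX1*, *PRDX6*, *SLC7A11* and *TRIM16L*. The match is of letters only, and says nothing of whether NRF2 binds there. Sequence outside the windows was not searched, so a gene without the core here may hold it elsewhere.

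Levels are the log2 of the background-corrected signal of a probe minus the 75th percentile of its array of spots that are not controls, so that 0 is that percentile. A probe was well above background if the scanner software marked it so. On the 4 arrays, 52.7% to 54.2% of 58201 probes were. The mock arrays differed from each other with an SD of 0.20 on the log2 scale over 28246 probes well above background on all arrays, and of 0.16 over the 46 such probes of the NRF2 genes. The same 46 probes had an SD of 0.47 in their difference from mock after *miR-486-5p* and of 0.89 on the 3p array. Over all such probes these SDs were 0.52 and 0.98. Differences were tested with limma on all 4 arrays, with Benjamini-Hochberg adjustment over all probes in the fit. Its only residual degree of freedom lies between the mock arrays, so the 5p and 3p arrays are taken to vary like them, and its p-values measure only that spread, which may be technical.

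The label of the cells was compared with markers. The keratin genes *KRT8*, *KRT18*, *KRT19* and *KRT7* were well above background on all arrays. *CDH1*, the epithelial cadherin, was not well above background on any array, nor were the surfactant genes *SFTPB* and *SFTPA1*. *EPCAM* and *NKX2-1* were well above background on some arrays and not on both mock arrays, and *SFTPC* was on both, at -3.00 and -3.12. *CDKN2A*, which A549 is known to have lost by homozygous deletion, was well above background on all 4 arrays with both of its probes, at levels of 3.51 to 6.03 on the mock arrays. *MTAP*, its neighbor in the same known deletion, was well above background with 3 of 3 probes. These genes of the deletion were looked up after the values were seen. Among genes that mark other cell types, *CD3E*, *CDH5*, *COL1A1*, both probes of *VWF* and 2 of 5 probes of *PTPRC* were well above background on both mock arrays, while *COL1A2*, *COL3A1* and *PECAM1* were not on any array and *CD68* had no probe. The levels of *CDKN2A* and *MTAP* go against the label, and the cells are therefore called cells labelled A549. The part of the identity of the cells in the values that follow was not tested.

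In mock cells, the NRF2 genes covered nearly the whole range of the arrays. Both mock arrays had at least 1 probe well above background for 38 of the 42 genes, and every probe of 34 genes was so on all 4 arrays. Mock means well above the 75th percentile included those of the peroxidases *PRDX1*, at 7.93 and 7.08 with its 2 probes, and *PRDX6*, at 6.72 and 4.60, of thioredoxin itself (*TXN*) at 7.34, and of the ferritin heavy chain gene *FTH1*, at 5.95 to 7.37 with 3 probes. *GSTP1*, which conjugates glutathione to electrophiles, stood at 6.80, the transketolase gene *TKT* at 6.15 and *GCLM*, the modifier subunit of the enzyme that starts glutathione synthesis, at 5.91. Other members well above that percentile included *TALDO1* at 5.73, *BLVRB* at 5.67, *SQSTM1* at 5.50 and *FTL* at 4.66 to 4.93 with 3 probes. Among them were also *PIR* at 4.18, *HMOX1* at 4.12 and *GSTM3* at 3.98. Levels of different probes depend on the probe as well as on the RNA and set no order among genes.

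Several NRF2 genes were dim in mock cells. Neither probe of *AKR1B10*, a reductase of retinal and other aldehydes, was well above background on a mock array, and the same held for both probes of *CYP4F11*, a fatty acid hydroxylase, both of *AKR1C4*, and the probe of *NFE2L2*. *AKR1C1* and *AKR1C3*, aldo-keto reductases of steroids, were above background at mock means of -2.12 and -2.56 for the probes of the former and -3.47 for the latter. *ALDH1A1*, which makes retinoic acid from retinal, had 1 probe at -3.50 and another not well above background. *NQO1*, the quinone reductase taken most often as a readout of NRF2, was not among the dim genes. It stood just above the 75th percentile, at 0.22 and 0.18 on the mock arrays.

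**Figure D1:**
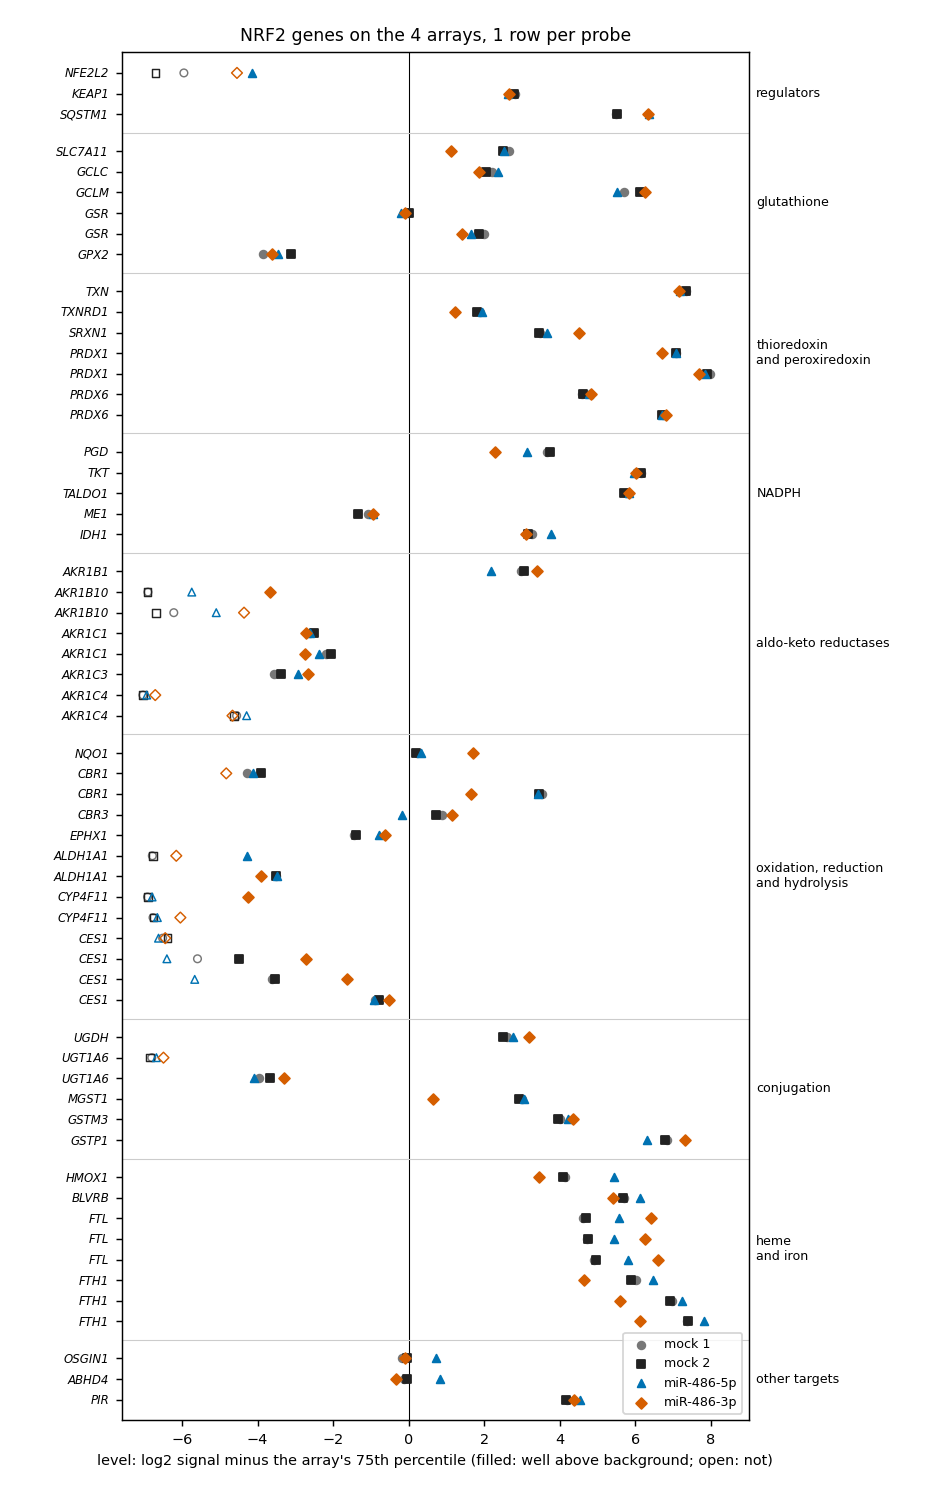
Level of each probe of the 42 NRF2 genes with a matched probe (rows, grouped by role) on each array: log2 signal minus the 75th percentile of the array, on the x axis. Filled symbols were well above background and open ones were not. The mock symbols of most rows lie on each other, and the miR-486-3p symbols (diamonds) lie apart from mock in more rows than the miR-486-5p symbols (triangles).

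After *miR-486-5p*, few NRF2 genes passed the test, and 5 of the 6 that did were higher than in mock. limma called 5 of the 39 genes with a value higher (*HMOX1*, *ABHD4*, *SQSTM1*, *FTL* and *ALDH1A1*), 12.8%, where 3.52% of all 16024 genes were called higher. It called 1 of 39 lower (*CES1*), 2.56%, where 6.79% of all genes were. With no test, 9 of the 39 lay above 0.5 on the log2 scale, beside 13.8% of all genes, and 4 lay below -0.5, beside 15.9%. The median difference of the 39 genes was 0.10 and that of all genes 0.03, and the members ranged from -0.98 to 1.31. *NFE2L2* entered only through the 5p array, where it was higher, so its place in these counts was set by the filter. The same holds for the probe that made the call of *ALDH1A1*, while its other probe was not called (limma adjusted p = 0.832). All calls lay close to the limit of 0.05: with the authors' log2 values, and with no filter on dim probes, limma called none of the genes in either direction (14 and 15 higher, 5 and 5 lower, at an unadjusted p under 0.05), and with an intensity trend it called 14 higher and 6 lower. The shares of all genes called under these other settings are not given here, and 3.52% and 6.79% do not apply to them.

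After *miR-486-3p*, NRF2 genes moved both ways. limma called 10 of 40 lower, 25.0%, where 31.8% of all 16446 genes were called lower, and 11 of 40 higher, 27.5%, where 32.2% were. Both shares were below those of the whole array. By size alone, 7 of the 40 lay below -0.5, beside 27.2% of 16419 genes, and 11 above 0.5, beside 30.5%. The median was 0.05 over the NRF2 genes, which ranged from -2.30 to 1.65, and 0.06 over all genes. These counts depended on the scaling. With median scaling the median was -0.32 over the NRF2 genes and -0.32 over all genes. The shares of all genes called under that scaling are not given here. When the arrays were scaled by their medians, all values after *miR-486-3p* moved by -0.37, and 17 NRF2 genes were called lower and 7 higher. *AKR1B10* and *CYP4F11* entered these counts only through the 3p array, where they were higher.

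**Figure D2:**
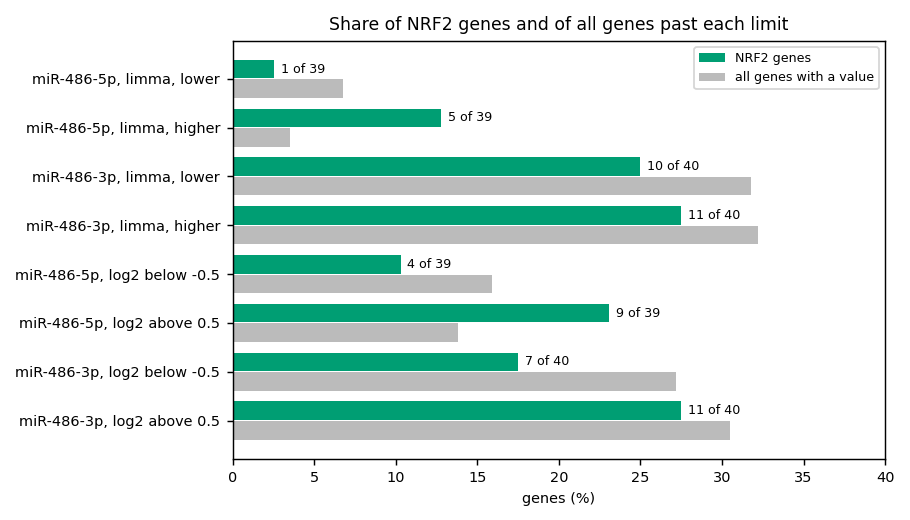
Share of the NRF2 genes (green) and of all genes with a value (grey) past each limit, in percent on the x axis, for each strand against mock. The label of each green bar gives the number of NRF2 genes. The green bars are longer than the grey ones for genes higher after miR-486-5p (12.8% beside 3.52% by limma) and shorter in every row for miR-486-3p.

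Of the genes that control the pathway, *SQSTM1* rose after both strands and *NFE2L2* and *KEAP1* were not called, although other settings called them. The probe of *NFE2L2* was well above background on the 5p array alone, at -4.14. It was at -5.95 and -6.71 on the mock arrays and at -4.55 on the 3p array, none of them well above background. In the values used here, its level after *miR-486-5p* was thus at least 1.50-fold higher than in mock. The test was run on the signals as measured, where the log2 difference was 2.19, and that difference did not pass. On the log2 scale the bound was 0.59, and it was 0.50 with quantile normalization and 0.14 with normexp background correction. The probe entered only through the 5p array, where it was high, so the bound is no support for a rise. Here and elsewhere, "at least" sets the dim arrays at the lowest signal that was well above background on them. The limma results belong to the signals as measured and not to such a bound. Levels of *KEAP1* were 2.82 and 2.78 on the mock arrays, 2.62 on the 5p array and 2.64 on the 3p array. Both transfected arrays lay just below the mock arrays, with log2 differences of -0.18 and -0.16, and neither difference passed the test (limma adjusted p = 0.259 and 0.238). With median scaling the 3p difference of *KEAP1* was -0.53 and was called, as was that of *NFE2L2* on the 5p array, and with normexp background correction both differences of *KEAP1* were called (-0.20 and -0.21). *SQSTM1* encodes p62, which binds KEAP1 and carries it to autophagy, and is itself an NRF2 target. It stood at 5.49 and 5.51 on the mock arrays, 6.35 on the 5p array and 6.34 on the 3p array. Both transfected arrays were above both mock arrays, by 0.85 ± 0.09 (SE; limma adjusted p = 0.0488) and 0.84 ± 0.09 (limma adjusted p = 0.0141). The difference between the strands was -0.01, with a 95% interval of -0.35 to 0.33.

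Of the 4 genes of heme breakdown and iron storage, *HMOX1* and *FTL* rose after *miR-486-5p*, while after *miR-486-3p* *HMOX1* and *FTH1* fell and *FTL* rose. *HMOX1*, heme oxygenase 1, which opens heme and frees its iron, stood at 4.15 and 4.09 on the mock arrays, 5.43 on the 5p array and 3.43 on the 3p array. The mock arrays lay between the transfected ones. It rose after *miR-486-5p* by 1.31 ± 0.09, 2.48-fold, the largest difference of the set after that strand among genes measured on all arrays (limma adjusted p = 0.0475). It fell by 0.69 after *miR-486-3p* (limma adjusted p = 0.0202). The strands differed by -2.00 (95% interval -2.35 to -1.64, limma adjusted p = 0.0119). *BLVRB*, a biliverdin reductase, followed the same order at 6.12 on the 5p array, 5.69 and 5.66 in mock and 5.41 on the 3p array. Neither of its differences from mock passed the test, while that between the strands did (limma adjusted p = 0.0267). Its 3p difference turned to above mock with quantile normalization and with the authors' values.

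Ferritin stores iron in a shell of heavy (*FTH1*) and light (*FTL*) chains, both known NRF2 targets whose translation is also held by iron regulatory proteins. The mean of the 3 probes of *FTL* was 4.74 and 4.80 on the mock arrays, 5.60 on the 5p array and 6.42 on the 3p array. Both transfected arrays were above both mock arrays with each probe. *FTL* rose by 0.83 on the 5p array, a call that 1 of its 3 probes made (limma adjusted p = 0.0488 to 0.0529), and by 1.65 on the 3p array, 3.14-fold, with all 3 (limma adjusted p = 0.00796 to 0.00821). The mean of the 3 probes of *FTH1* was 6.78 and 6.73 on the mock arrays, 7.17 on the 5p array and 5.45 on the 3p array. It fell after *miR-486-3p* by 1.30 on the log2 scale, with each of its probes called (limma adjusted p = 0.00891 to 0.0109), and the 0.42 after *miR-486-5p* was not called. Both genes have many processed copies in the genome, and whether their probes bind RNA of these was not tested.

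**Figure D3:**
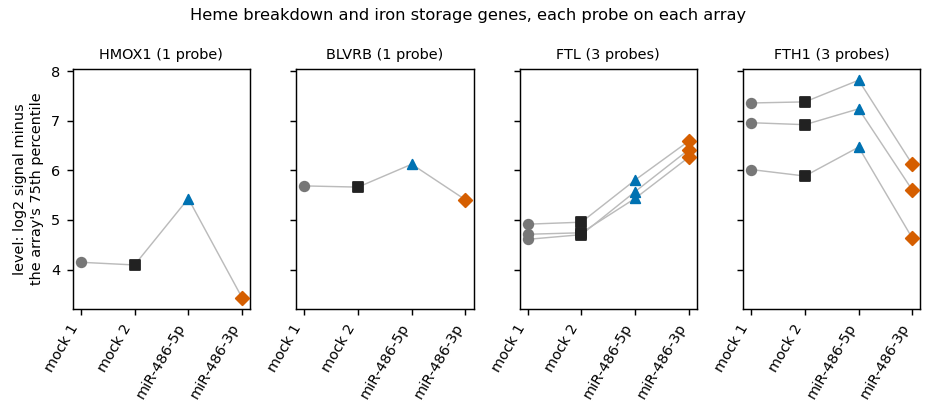
Levels of each probe of HMOX1, BLVRB, FTL and FTH1 on the 4 arrays (y axis, log2 signal minus the 75th percentile of the array; lines join the values of 1 probe). The 3 FTL probes are highest on the miR-486-3p array, where the 3 FTH1 probes and HMOX1 are lowest.

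Of the 5 glutathione genes, none passed the test after *miR-486-5p*, and *SLC7A11* and *GSR* fell after *miR-486-3p*. *SLC7A11* is the cystine carrier that supplies cysteine for glutathione. It stood at 2.66 and 2.49 on the mock arrays, 2.52 on the 5p array and 1.11 on the 3p array. The 3p array was below the 3 others. *SLC7A11* fell by 1.46 ± 0.12 (SE; limma adjusted p = 0.0111), and the strands differed by -1.41 (limma adjusted p = 0.0178). *GSR*, which regenerates reduced glutathione, was called lower with 1 of 2 probes, at -0.52 (limma adjusted p = 0.0440), while the other differed by -0.07. The subunits of glutamate-cysteine ligase were not called after either strand: *GCLC*, the catalytic one, differed by 0.25 and -0.26, and *GCLM* by -0.41 and 0.34, on the 5p and 3p arrays in that order. *GCLM* was less certain, since its mock arrays were 5.70 and 6.12. *GPX2*, a glutathione peroxidase, had the widest gap between the mock arrays, 0.75, of the 46 probes above background on all arrays, and differed from their mean by 0.04 and -0.14.

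Among the thioredoxin genes, *SRXN1*, which repairs overoxidized peroxiredoxins, and *TXNRD1*, the reductase of thioredoxin, were called in opposite directions on the 3p array. *SRXN1* stood at 3.46 and 3.45 on the mock arrays, 3.66 on the 5p array and 4.49 on the 3p array. Both transfected arrays were above mock, and the rise of 1.04 ± 0.09 after *miR-486-3p* was called (limma adjusted p = 0.0110), while the 0.21 after *miR-486-5p* was not. *TXNRD1* was at 1.88 and 1.80 in mock, 1.93 on the 5p array and 1.24 on the 3p array, a fall of 0.61 (limma adjusted p = 0.0266). *TXN*, *PRDX1* and *PRDX6*, with differences of -0.38 to 0.22 over their 5 probes, were not called after either strand.

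Of the genes that supply NADPH, *PGD* fell after *miR-486-3p* and no other passed the test after either strand. *PGD*, the phosphogluconate dehydrogenase of the pentose phosphate pathway, stood at 3.67 and 3.74 on the mock arrays, 3.13 on the 5p array and 2.29 on the 3p array. Both transfected arrays were below mock. The log2 difference was -0.57 after *miR-486-5p* (limma adjusted p = 0.0648) and -1.41 ± 0.10 after *miR-486-3p* (limma adjusted p = 0.00901). *TKT* and *TALDO1*, of the non-oxidative branch, differed from mock by -0.18 to 0.10. *ME1*, malic enzyme, differed by 0.27 and 0.26. *IDH1*, cytosolic isocitrate dehydrogenase, was 0.55 above mock after *miR-486-5p* (limma adjusted p = 0.0692) and differed by -0.10 on the 3p array.

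The reductases of carbonyl compounds *AKR1B1*, *CBR3* and *CBR1* differed between the strands. *AKR1B1*, aldose reductase, stood at 2.96 and 3.05 on the mock arrays, 2.17 on the 5p array and 3.40 on the 3p array. *CBR3*, a carbonyl reductase, stood at 0.87 and 0.73 in mock, -0.18 on the 5p array and 1.14 on the 3p array. In both genes the 5p array was below and the 3p array above the mock arrays, except that *CBR3* lay below mock on the 3p array with median scaling. The differences from mock after *miR-486-5p*, -0.83 and -0.98, had a limma adjusted p of 0.0520 each and were not called. The differences between the strands, 1.23 and 1.32, were (limma adjusted p = 0.0159 and 0.0176). *CBR1*, which lies next to *CBR3* on chromosome 21, had 2 probes of different transcripts. The brighter was at 3.51 and 3.44 in mock, 3.41 on the 5p array and 1.65 on the 3p array, a fall of 1.83 (limma adjusted p = 0.00774). The dimmer was not well above background after *miR-486-3p* and was not called.

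Of the steroid and retinal reductases, *AKR1C3* rose after *miR-486-3p* by 0.81 (limma adjusted p = 0.0300), and *AKR1C1* fell with 1 of 2 probes, at -0.63 (limma adjusted p = 0.0329), the other being at -0.15. With normexp the mean of the *AKR1C1* probes turned to above mock. The probes of *AKR1C1* may also bind RNA of the near-identical *AKR1C2*, which was not tested. *AKR1B10* became detectable on the 3p array with 1 of 2 probes, at -3.66, at least 2.09-fold higher than in mock. The same held for 1 of 2 probes of *CYP4F11*, at -4.25, at least 1.39-fold higher. Both remained in the dim range, and since the filter admitted them only through the array on which they were high, their calls are no support for a rise.

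Among the other oxidoreductases and hydrolases, *NQO1* rose after *miR-486-3p*. Levels of *NQO1* were 0.22 and 0.18 on the mock arrays, 0.31 on the 5p array and 1.71 on the 3p array. The 3p array stood apart from the 3 others, by 1.50 ± 0.09 (SE), 2.83-fold (limma adjusted p = 0.00837). The strands differed by 1.39 (limma adjusted p = 0.0132), and the 0.11 after *miR-486-5p* was not called. *EPHX1*, the microsomal epoxide hydrolase, was at -1.46 and -1.40 in mock, -0.79 on the 5p array and -0.64 on the 3p array. Both transfected arrays were above mock, and the 0.79 after *miR-486-3p* was called (limma adjusted p = 0.0165) while the 0.64 after *miR-486-5p* was not (limma adjusted p = 0.0570). Their own difference was 0.15, with a 95% interval of -0.21 to 0.50.

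Probes of *CES1*, a carboxylesterase, and of *ALDH1A1* disagreed. Of the 3 *CES1* probes above background, 1 was at -3.62 and -3.53 on the mock arrays, -1.64 on the 3p array and not well above background on the 5p array. This probe was called higher after *miR-486-3p*, by 1.94 (limma adjusted p = 0.00772), and lower after *miR-486-5p* (limma adjusted p = 0.0475), a call that no other probe made. A further probe of the same transcript differed from mock in the same directions, by -1.36 on the 5p array and 2.31 on the 3p array. It was not called against mock, and was well above background only on the 3p array and on mock array 2. The brightest *CES1* probe, of another transcript, lay between -0.92 and -0.52 on all arrays and was called after neither strand. The calls of *ALDH1A1* came from different probes: the one well above background on all arrays fell by 0.42 after *miR-486-3p* (limma adjusted p = 0.0430), and the one called higher after *miR-486-5p* was well above background on that array alone. The gene's difference after *miR-486-3p* turned to above mock with normexp and with no filter on dim probes.

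Conjugating enzymes held the largest fall of the set. *MGST1*, a membrane-bound glutathione transferase with peroxidase activity, stood at 3.00 and 2.91 on the mock arrays, 3.06 on the 5p array and 0.65 on the 3p array. The 3p array stood far below the 3 others, which lay together. It fell by 2.30 ± 0.10 (SE), to 20.3% of mock (limma adjusted p = 0.00762). The cytosolic transferase *GSTP1* was at 6.82 and 6.77 in mock, 6.32 on the 5p array and 7.32 on the 3p array. It rose after *miR-486-3p* by 0.53 (limma adjusted p = 0.0310), the -0.48 after *miR-486-5p* was not called (limma adjusted p = 0.0743), and the strands differed by 1.00 (limma adjusted p = 0.0182). *UGDH*, which makes the glucuronic acid donor, rose after *miR-486-3p* by 0.66 (limma adjusted p = 0.0271). *GSTM3* and *UGT1A6* were not called after either strand.

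Of the remaining targets, *ABHD4* and *OSGIN1* were higher on the 5p array than on any other. *ABHD4*, a lipase of N-acyl phospholipids, stood at -0.11 and -0.06 in mock, 0.83 on the 5p array and -0.33 on the 3p array. It rose after *miR-486-5p* by 0.92 ± 0.09 (limma adjusted p = 0.0483), and the -0.24 after *miR-486-3p* was not called. *OSGIN1*, induced by oxidative stress, was at -0.17 and -0.04 in mock, 0.71 on the 5p array and -0.10 on the 3p array, within the mock arrays. The 0.82 after *miR-486-5p* was not called (limma adjusted p = 0.0544). *PIR*, an iron-binding nuclear protein, differed from mock by 0.36 and 0.20 and was not called.

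**Figure D4:**
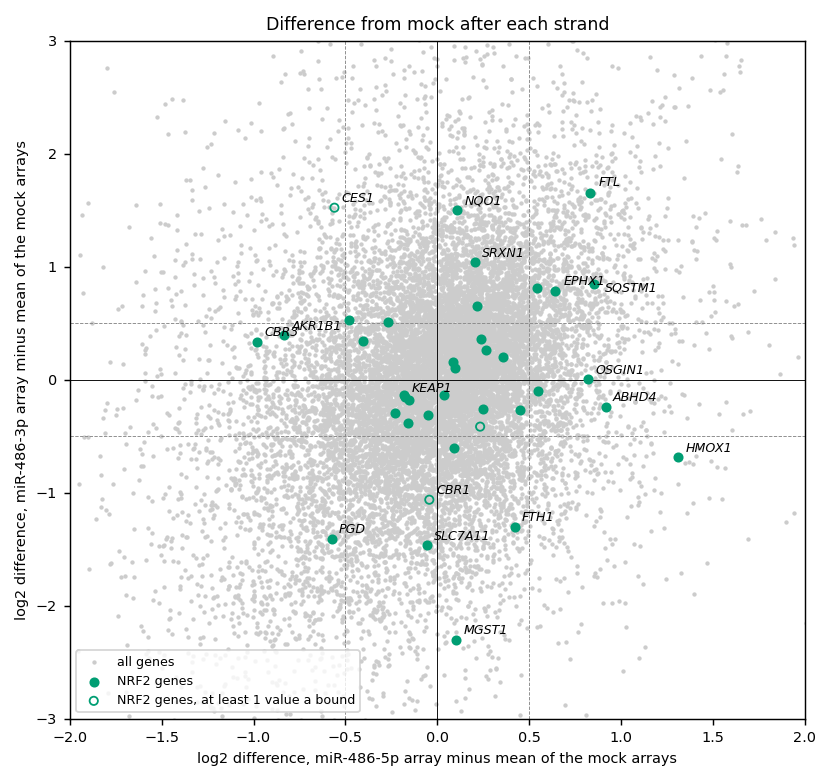
Log2 difference of the 5p array (x axis) and of the 3p array (y axis) from the mock mean, for all genes (grey points, those within the axes) and for NRF2 genes with a value after both strands (green; open where at least 1 value is a bound). Dashed lines mark -0.5 and 0.5. Both axes share the mock arrays. HMOX1 lies at 1.31 and -0.69, FTL at 0.83 and 1.65, and MGST1 at 0.10 and -2.30.

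The comparison of the strands with each other does not rest on the mock levels, although its error does. Of 41 genes in the fit, limma called 12 lower after *miR-486-3p* than after *miR-486-5p*, 29.3%, beside 27.4% of all 16561 genes, and 9 higher, 22.0%, beside 26.7%. The lower ones were *ABHD4*, *ALDH1A1*, *BLVRB*, *CBR1*, *FTH1*, *HMOX1*, *IDH1*, *MGST1*, *OSGIN1*, *PGD*, *SLC7A11* and *TXNRD1*. The higher ones were *AKR1B1*, *AKR1B10*, *CBR3*, *CES1*, *CYP4F11*, *FTL*, *GSTP1*, *NQO1* and *SRXN1*. *AKR1B10* and *CYP4F11* entered only through the 3p array, where they were high. The call of *ALDH1A1* came from a probe well above background on the 5p array alone, and its other probe was not called. The filter thus set the place of these genes in the counts. The probes that made the call of *CES1* were not well above background on the 5p array. Both lists hold glutathione or thioredoxin enzymes, carbonyl reductases and a ferritin chain. Members with the promoter core went both ways after *miR-486-3p*: of the 14, 4 were called lower (*CBR1*, *MGST1*, *PGD*, *TXNRD1*) and 3 higher (*CYP4F11*, *EPHX1*, *GSTP1*), with a median of 0.05. Of the 20 without it in the window, 17 had a value, with a median of 0.10, and 2 were called lower and 6 higher. The shares of all genes were 31.8% lower and 32.2% higher. Because *CYP4F11* entered only through the 3p array, its call is no support for a rise of genes with the core. With *miR-486-5p*, none of the 13 genes with the core and a value was called, and 4 of the 18 without it were called higher, beside 3.52% of all genes higher and 6.79% lower. These 4 include *ALDH1A1*, whose call came from a probe admitted only through the 5p array.

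A wider list of 69 genes of the same pathway, none of them among the 44, was counted in the same way, with 66 matched to probes. After *miR-486-5p*, 3 of 61 genes with a value were called higher and 2 lower, with a median of 0.06. After *miR-486-3p*, 20 of 63 were called higher and 18 lower, with a median of -0.02. Over all genes, 3.52% were called higher and 6.79% lower after *miR-486-5p*, and 32.2% higher and 31.8% lower after *miR-486-3p*. After *miR-486-3p* the list lay near these shares, so the changes of single genes below are not read as a response of the pathway. Small MAF proteins are the partners of NRF2 on DNA. *MAFF* rose after *miR-486-5p* by 1.57 (limma adjusted p = 0.0475) and after *miR-486-3p* by 0.69 (limma adjusted p = 0.0197). *MAFG* rose by 0.87 and 1.30 with both of its probes, and *MAFK* by 1.32 after *miR-486-3p*. The NRF2 relatives *NFE2L1* and *NFE2L3* fell after *miR-486-3p*, by 1.04 and 2.45, as did *SESN2*, by 2.16. Of the genes that degrade NRF2, *CUL3* and the kinase gene *GSK3B* were not called after either strand. *RBX1* fell by 0.56 on the 3p array, and *BTRC*, which binds NRF2 marked by that kinase, rose by 1.47. *IDH2*, the mitochondrial relative of *IDH1*, fell after *miR-486-5p* by 1.02 (limma adjusted p = 0.0475).

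The wider list also held partners of the enzymes described above. *SLC3A2*, which pairs with *SLC7A11* in the cystine carrier, fell after *miR-486-3p* by 1.02 (limma adjusted p = 0.0126) on the log2 scale. *GSS*, glutathione synthetase, fell by 0.91, and *GPX4*, the peroxidase of membrane lipids, by 1.67 (limma adjusted p = 0.00796). *HMOX2*, the constitutive heme oxygenase, fell by 1.42, while *FECH*, which inserts the iron that completes heme, rose by 1.80. *GGT1*, which breaks down glutathione outside the cell, rose by 1.73. *DPP3* and *PALB2*, whose proteins bind KEAP1, fell by 1.50 and 1.69. Among export pumps for conjugates, *ABCC3* stood at -2.87 and -2.81 on the mock arrays and 0.73 on the 3p array, 11.8-fold higher, and at -3.87 after *miR-486-5p*. *ABCC2* rose by 1.91 on the 3p array, while *ABCC1* and *ABCC4* fell by 0.75 and 0.84.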

How the data were processed

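The authors deposited the output of Agilent Feature Extraction (12.1.1.1 per the file headers, probes annotated on hg19) as intensity on a linear scale, background-corrected, and a table of log2 values whose normalization is not given in the sources used here. Those log2 values had the same median on each array (2.76) and correlated with the scanner signal at 0.9996 to 0.9999 (Pearson, across probes). Outlier spots (50 to 72 per array) and 2075 control spots were left out, no spot was saturated, spots of a probe were averaged, and log2 signals were set against the 75th percentile of each array. The number of arrays limits precision. Of 33080 probes with a RefSeq accession, 31104 matched 22439 genes in a GRCh38.p14 table, used for names and promoters only.

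Probes entered a comparison if marked well above background in all mock cells or after that strand. A group below background was raised to the lowest signal well above background of each array, and the difference is then a bound. The limma fit used the signals without this step. Gene differences are means over probes in use, and a gene was called if 1 probe was. limma 3.58.1 (R 4.3.3; lmFit, eBayes, 3 groups, 33498 probes, adjusted p under 0.05, two-sided) was tested on simulated data. Further tools were Python 3.11.15 and pandas 2.3.3.

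The members, pathway list and markers were chosen with earlier results of these data known. Values on every array are given for *NFE2L2*, *KEAP1*, *SQSTM1* and, per strand, the 8 members that differed most among those measured on all 4 arrays and outside both mock arrays. For the pathway list, the 4 largest differences per strand were picked in the same way. Other genes named were chosen after their values were seen. Most genes of the pathway list are given by their counts alone, and the values of 1 of them and of 1 marker are not reported here. Alternatives were other scalings, the authors' values, background correction, filters, tests and mock arrays.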

Additional observations from a re-analysis of the deposited data

How the results depend on the processing

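The genes given on every array by rule were recomputed for the strand or strands that they were named for, and none of these 170 differences changed sign. For the other strand some did, among them *OSGIN1* and *CBR3* after *miR-486-3p* and *SLC7A11* after *miR-486-5p*. Over all members, 10 of 350 recomputed differences after *miR-486-5p* and 25 of 358 after *miR-486-3p* did, at most 8 under 1 setting (median scaling, *miR-486-3p*), and of genes called by limma only *AKR1C1* (normexp) and *ALDH1A1* (normexp, no filter) were among them. *KEAP1* was called with median scaling (*miR-486-3p*) and with normexp (both strands), and *NFE2L2* with median scaling (*miR-486-5p*). After *miR-486-5p*, the calls of *HMOX1*, *ABHD4*, *FTL* and *SQSTM1* were lost with the authors' log2 values and with no filter on dim probes, and *CBR3*, *AKR1B1*, *OSGIN1* and *EPHX1* were called under at least 2 of median scaling, quantile normalization, normexp and the filter for all arrays. The count of genes called lower after *miR-486-5p* (1) was 4 with median scaling, 2 with quantile normalization, 6 with normexp (on the median signal, chosen after seeing the data since the mean signal was not used here), 4 among probes well above background on all arrays and 6 with an intensity trend in limma. It was 0 with the authors' values, with no filter, with the methods' t-test (2 at an unadjusted p under 0.05), with the brightest probe (4) and where every probe had to be called. The count called higher (5) was 11 with normexp, 10 among probes above background on all arrays, 14 with a trend, 3 where every probe had to be called, and 0 with the authors' values, no filter and the t-test (12 at an unadjusted p under 0.05). With a limit of 1 in place of 0.5, the genes below it (4) were 0 and those above it (9) were 1, and normexp gave 5 above. The median of 0.10 was 0.026 with median scaling. After *miR-486-3p*, the count called lower (10) was 17 with median scaling, 6 with no filter and 0 with the t-test (9 at an unadjusted p under 0.05), and that called higher (11) was 7 with median scaling and 0 with the t-test (9 likewise). The genes below -0.5 (7) were 18 with median scaling. Those above 0.5 (11) were 5 with median scaling, 5 with normexp and 5 past a limit of 1. The median of 0.05 was -0.32 with median scaling, 0.12 with quantile normalization, with the authors' values and with no filter, -0.050 among probes above background on all arrays, and 0.033 to 0.10 without 1 mock array. Genes lower after *miR-486-3p* than after *miR-486-5p* (12) were 7 with no filter. The authors' values differed from those used here by a median of 0.04 on the 5p array and 0.24 on the 3p array over the NRF2 genes. The shares of all genes past each limit under the alternatives are not given here, so the counts above have no such share beside them. The cause of these shifts was not tested, and the wider pathway list was not recomputed. No paired analysis was possible because a strand is held by 1 array, so that at most 1 replicate number is common to it and mock. A slide block could not be fitted, since all arrays lay on 1 slide, and limma without a mock array has no residual degree of freedom.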
